A study of Arabidopsis thaliana with 12 samples.

Results

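The core of the circadian clock was examined through 10 Arabidopsis thaliana genes, chosen by name and locus identifier: CCA1 (AT2G46830), LHY (AT1G01060), PRR9 (AT2G46790), PRR7 (AT5G02810), PRR5 (AT5G24470), TOC1 (AT5G61380), GI (AT1G22770), ELF3 (AT2G25930), ELF4 (AT2G40080) and LUX (AT3G46640). All 10 were found among the 33607 genes of each of the 4 deposited tables. Polyadenylated RNA was sequenced from roots and whole rosettes of Columbia-0 plants of 2 transgenic lines: IMA1 OE line #7-4 carried the IMA1 open reading frame behind the 35S promoter, and the control, EYFP OE, carried EYFP behind the same promoter. Each transgene was represented by 1 line. The 6 groups held 2 libraries each, and the libraries carry the numbers 1 and 2. Roots and rosettes were each represented by control plants kept on full medium and by IMA1 OE plants kept on either medium. Control plants without Fe were not analysed here, so line and medium change together in the comparisons with Fe-deficient plants.

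All plants were raised under constant illumination at 50 µmol m-2 s-1 on medium with 1.5% sucrose, with 25 seedlings on a plate. After 10 days they were moved to fresh full medium, or to medium without Fe that held 100 µM of the Fe chelator FerroZine, and were collected 72 hours later. No hour of collection for a single library is given in the sources used here. Per the labels' protocols, RNA integrity numbers ran from 9.8 to 10 in roots and from 8.3 to 8.7 in leaves. The labels do not say whether the libraries of a group came from separate plates, so the p-values measure only the spread between these libraries. Read depth is unknown for every library, and levels are the authors' normalized expression values, which carry no unit. In the table for Fe-deficient rosettes the column headings of IMA1 OE name sufficient Fe. These columns were assigned to the Fe-deficient samples because, among the IMA1 OE rosettes, the labels of those samples alone name that table, and this doubt bears on all their values.

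The plant clock is a network of transcription factors and their partners that repress one another in turn, and it goes on running in continuous light. CCA1 and LHY, related MYB-type factors, peak around dawn and repress evening genes through a promoter sequence called the evening element. PRR9, PRR7 and PRR5 follow through the day and repress CCA1 and LHY, a task that TOC1 takes over in the evening. GI stabilises an F-box protein that marks TOC1 for degradation, and ELF3, ELF4 and LUX form the evening complex, a repressor of PRR9 among others. The clock of Arabidopsis is known to respond to Fe supply, with a longer period under Fe deficiency, and to take part in the control of the ferritin gene FER1.

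The libraries matched their labels for line and tissue. The IMA1 transcript (AT1G47400) was at 6.71 and 1.96 in EYFP OE roots and at 409.95 and 365.97 in IMA1 OE roots on full medium, and at 9.03 and 2.02 and at 482.72 and 345.57 in rosettes. It was at 322.23 and 331.41 in roots and at 413.84 and 354.42 in rosettes of IMA1 OE on Fe-deficient medium. RBCS1A, a gene of the Rubisco small subunit, lay between 9886.63 and 12826.6 in rosette libraries and between 55.43 and 135.89 in root libraries. CASP1, a gene of the root endodermis, lay between 73.95 and 82.84 in root libraries and at no more than 1.01 in rosette libraries.

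The genes lie on 4 of the chromosomes in the RefSeq annotation of TAIR10.1. On chromosome 2 PRR9 (19232607 to 19235179) and CCA1 (19245591 to 19248915) lie near each other on the plus strand, and ELF3 (11058944 to 11063324) and ELF4 (16734294 to 16734953) lie on the plus and the minus strand. Chromosome 5 holds PRR7 (637681 to 642030, minus strand), PRR5 (8356204 to 8358546, minus strand) and TOC1 (24674963 to 24678550, plus strand). Chromosome 1 holds LHY (33365 to 37871, minus strand) and GI (8061751 to 8067790, plus strand), and chromosome 3 holds LUX (17183042 to 17186959, plus strand). ELF3 overlaps the protein-coding gene AT2G25940 and the antisense RNA AT2G08135, and LUX overlaps the protein-coding gene AT3G46650, all on the opposite strand. The libraries were made with a stranded kit, but whether counting used the strand is not given in the sources used here, so the levels of ELF3 and LUX are uncertain to that extent.

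The evening element is shown because it is the promoter sequence through which CCA1 and LHY are known to act on evening genes. In the 1000 bases upstream of the annotated gene start, read on both strands, the letters AAAATATCT were found for 5 of the 10 genes, PRR5, TOC1, GI, ELF4 and LUX. They were found for 1987 of 27443 protein-coding genes (7.24%) in windows of the same length. The stretch with the copy nearest the start is given for each of the 5 genes on the strand of the gene, 5′ to 3′, with the element or its reverse complement in capitals, from the TAIR10.1 genome. PRR5 and GI held 3 copies each and the others 1 each. The distance from the first base of the copy to the gene start was 151 bases for TOC1, 591 for GI, 187 for PRR5, 536 for ELF4 and 53 for LUX.
TOC1, chr5:24674792-24674840, plus strand: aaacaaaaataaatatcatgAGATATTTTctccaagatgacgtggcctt
GI, chr1:8061140-8061188, plus strand: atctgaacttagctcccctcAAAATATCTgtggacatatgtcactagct
PRR5, chr5:8358705-8358753, minus strand: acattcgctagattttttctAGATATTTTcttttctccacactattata
ELF4, chr2:16735461-16735509, minus strand: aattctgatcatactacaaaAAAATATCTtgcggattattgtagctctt
LUX, chr3:17182969-17183017, plus strand: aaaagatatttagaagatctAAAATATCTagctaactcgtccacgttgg

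The element was not found in these letters in the same window of CCA1, LHY, PRR9, PRR7 or ELF3. The related CCA1-binding site, AAAAATCT, was found upstream of LHY, PRR9 and PRR5 and of 21.1% of all genes. The G-box, CACGTG, was found upstream of CCA1, LHY, PRR9, PRR7 and LUX and of 14.8% of all genes. The LUX-binding site, taken as GATTCG or GATACG, was found for 8 of the 10 genes, all but CCA1 and PRR5, and for 39.8% of all genes. None of the searched motifs contains another in its letters. These are matches of letters and show no binding.

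In roots the highest of the 6 libraries was at least 2-fold above the lowest for 0 of the 10 clock genes, near the share of 9.79% among 19895 tested genes. In rosettes the highest of the 6 libraries was at least 2-fold above the lowest for 9 of the 10 genes, ELF3 being the exception, against 16.5% of 18936 tested genes. A gene was tested where its value was at least 1 in at least 2 libraries, and all 10 clock genes passed in every table. In these bulk samples fewer cells of a type and less RNA per cell cannot be told apart.

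**Figure D1:**
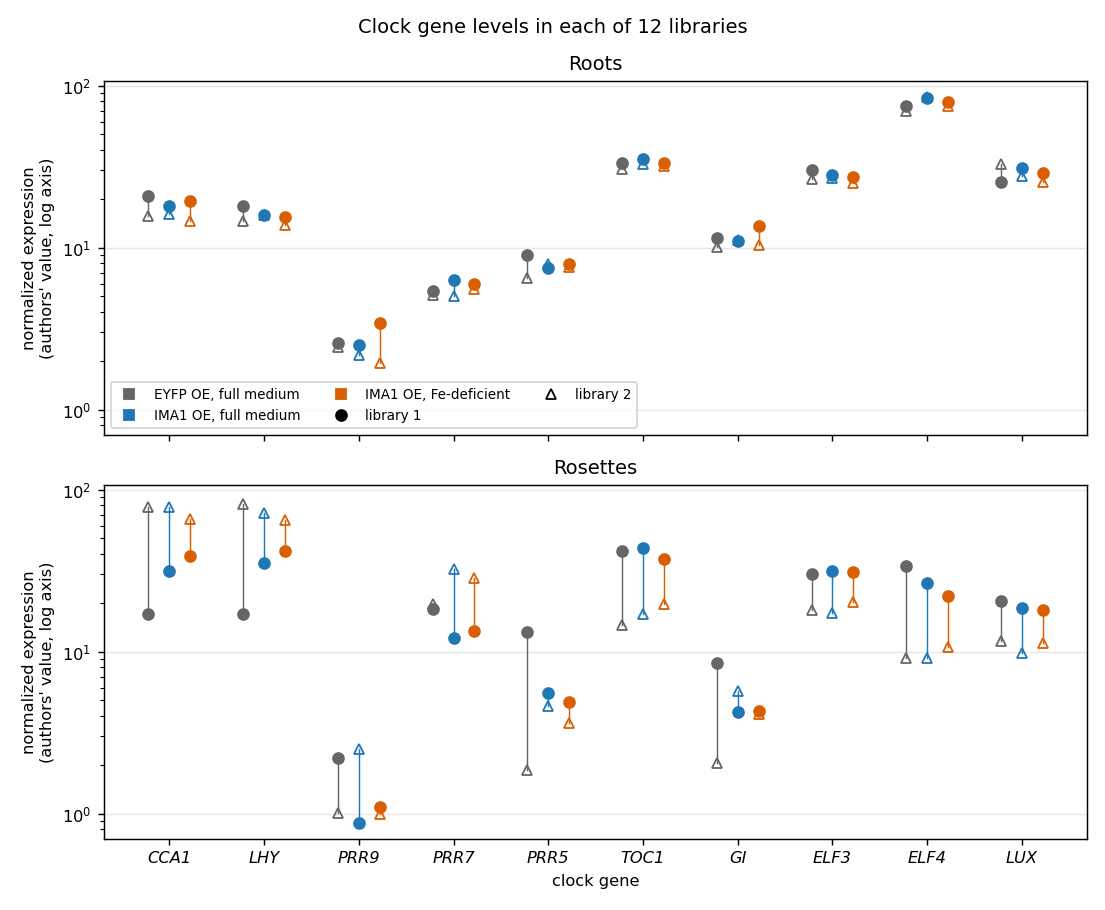
Normalized expression (log axis) of the 10 clock genes in the 6 root libraries (top) and the 6 rosette libraries (bottom). Circles are the libraries numbered 1, triangles those numbered 2, colours are the groups and a line joins the libraries of a group. Root pairs lie close together, while in rosettes CCA1 and LHY are higher in the libraries numbered 2 and TOC1, ELF3, ELF4 and LUX in those numbered 1.

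The dawn genes of roots ranged somewhat more than the typical gene. CCA1 stood at 20.75 and 15.76 in EYFP OE roots, at 18.17 and 16.08 in IMA1 OE roots on full medium and at 19.52 and 14.67 in IMA1 OE roots on Fe-deficient medium. LHY stood at 18.04 and 14.59, at 15.98 and 15.85 and at 15.38 and 13.80 in the same order. The highest library was 1.41-fold above the lowest for CCA1, a range reached by 26% of 18841 genes, and 1.31-fold for LHY, reached by 37.8%, beside a median of 1.24-fold. The IMA1 OE values of both genes on full medium lay within the EYFP OE range. Library 1 was the higher of the pair for CCA1 and LHY in all 3 root groups.

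The day-phased regulators of roots were the lowest of the set. PRR9 stood at 2.57 and 2.42 in EYFP OE roots, at 2.52 and 2.19 in IMA1 OE roots on full medium and at 3.45 and 1.95 on Fe-deficient medium. The last pair was the widest of PRR9 in roots, a 1.77-fold difference, and 10.2% of 18841 genes ranged as far. PRR7 ran from 5.05 to 6.28 and PRR5 from 6.54 to 9.02 over the 6 root libraries.

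Among the evening genes ELF4 was the highest clock gene of roots and the only one whose unadjusted p fell below 0.05 in any comparison. ELF4 stood at 75.08 and 69.69 in EYFP OE roots, at 83.37 and 84.94 in IMA1 OE roots on full medium and at 79.10 and 74.90 on Fe-deficient medium. Both IMA1 OE libraries on full medium lay above both EYFP OE libraries. TOC1 ran from 30.71 to 35.47, a 1.155-fold range and the narrowest of the 10 genes in roots. ELF3 ran from 24.98 to 30.36, LUX from 25.50 to 32.71 and GI up to 13.67, with a median of 11.1. EYFP OE levels are those of the tables for full medium unless stated.

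Levels were set beside each other between genes because the deposited values behave as scaled per length. Among genes with the same value in all 4 columns of the full-medium root table, the median was 0.05 for transcripts under 500 bases and 0.01 for those over 2000 bases. On that per-length scale the order of mean levels in EYFP OE roots was ELF4 at 72.4 ± 3.81 (SD, n = 2), TOC1 at 32.1 ± 1.95, LUX at 29.2 ± 5.03, ELF3 at 28.4 ± 2.79, CCA1 at 18.3 ± 3.53, LHY at 16.3 ± 2.44, GI at 10.8 ± 0.926, PRR5 at 7.78 ± 1.75, PRR7 at 5.27 ± 0.205 and PRR9 at 2.50 ± 0.106. The libraries of TOC1, LUX and ELF3 overlapped with their neighbours in this order, as did those of CCA1 and LHY, and the other neighbours did not overlap.

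Whether IMA1 overexpression moved the clock genes of roots on full medium was tested with limma across 19741 genes, with Benjamini-Hochberg adjustment and a threshold of 0.05. None of the 10 passed, where 0.0355% of all tested genes did (7 genes), and 1 had an unadjusted p under 0.05, where 4.22% of all genes had. That gene was ELF4, whose log2 change was 0.22 (SE 0.07, 95% interval 0.04 to 0.39, unadjusted p 0.0244, limma adjusted p 1). It was also the only one of the 10 whose groups did not overlap, as 30% of all tested genes. The median log2 change of the 10 genes was 0.0092, beside -0.0098 for all tested genes, and 5 were higher and 5 lower, where 46.1% of all tested genes were higher. The intervals of the other 9 genes all held 0, and the widest bounds were -0.47 for CCA1 and 0.42 for PRR7. No interval reached 1 or -1, a 2-fold change of value + 1, a scale that understates the change of low genes such as PRR9. For 6 of the 10 genes both IMA1 OE libraries lay within the EYFP OE range, beside 14.9% of tested genes. That count depends on the width of the EYFP OE pair, whose median log2 difference was 0.18 for the clock genes and 0.10 for all tested genes.

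On Fe-deficient medium, where line and medium differ at once, 0 of the 10 clock genes passed in roots, beside 0.92% of 19673 tested genes (181 genes). None had an unadjusted p under 0.05, beside 9.14% of all genes. The largest log2 changes were those of GI, at 0.15 (SE 0.15, 95% interval -0.23 to 0.53, limma adjusted p 0.836), and PRR7, at 0.14 (SE 0.10, 95% interval -0.12 to 0.40, limma adjusted p 0.77). With the EYFP OE levels as normalized for this comparison, the groups of PRR7 and ELF4 did not overlap, 2 of 10 genes, beside 39.4% of all tested genes. With the EYFP OE levels as normalized for full medium, ELF4 did overlap, at 75.08 in EYFP OE library 1 against 74.90 in IMA1 OE library 2. The median of the 10 changes was 0.031, beside -0.016 for all tested genes. This comparison and the one on full medium share their EYFP OE libraries, and CCA1 had log2 changes of -0.08 on full and -0.08 on Fe-deficient medium. The widest interval was that of PRR9, from -0.48 to 0.65. In all, 6 genes were higher in IMA1 OE, beside 44.8% of tested genes, and for 2, PRR5 and LUX, both IMA1 OE libraries lay within the EYFP OE range, beside 13.9%.

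In rosettes the libraries of a group differed. The dawn genes CCA1 and LHY and the day gene PRR7 were higher in the library numbered 2 of every group, and TOC1, ELF3, ELF4, LUX and PRR5 were higher in the library numbered 1. This was the same direction in all 3 groups for 8 of the 10 genes, beside 49.6% of 18582 tested genes. In roots 6 of the 10 genes, CCA1, LHY, PRR9, PRR7, TOC1 and ELF3, were higher in the library numbered 1 of all 3 groups and 0 were lower, beside 19.4% and 21.3% (40.7% in either direction) of 19573 tested genes, but with small differences. The numbers come from the sample titles, and nothing in the labels says that a number marks a shared plate or day.

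CCA1 stood at 17.07 and 78.07 in EYFP OE rosettes, at 31.58 and 78.33 in IMA1 OE rosettes on full medium and at 38.92 and 66.12 on Fe-deficient medium. The higher library was 4.57-fold, 2.48-fold and 1.70-fold above the lower. LHY, its close relative, stood at 17.16 and 81.00, at 35.30 and 72.26 and at 41.54 and 65.41. Both genes were lowest in EYFP OE library 1, and the pair was widest in EYFP OE and closest in IMA1 OE on Fe-deficient medium. Whether the width differs between groups was not tested, since each group gives 1 difference.

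The evening genes ran the other way. TOC1 stood at 41.59 and 14.61 in EYFP OE rosettes, at 43.51 and 17.10 in IMA1 OE rosettes on full medium and at 37.43 and 19.77 on Fe-deficient medium. ELF4 stood at 33.76 and 9.15, at 26.56 and 9.20 and at 22 and 10.74. For both genes all 3 libraries numbered 1 lay above all 3 numbered 2. ELF3 ran from 30.24 to 31.55 in the libraries numbered 1 and from 17.31 to 20.14 in those numbered 2. LUX ran from 18.08 to 20.58 and from 9.78 to 11.71, so that these subunits of the evening complex showed the same separation with smaller folds.

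GI and PRR5 stood apart from the other evening element genes. PRR5 was at 13.32 and 1.85 in EYFP OE rosettes, a 7.20-fold difference, but at 5.55 and 4.62 in IMA1 OE on full medium and at 4.87 and 3.63 on Fe-deficient medium. GI was at 8.47 and 2.05 in EYFP OE, at 4.27 and 5.72 in IMA1 OE on full medium and at 4.30 and 4.13 on Fe-deficient medium. All 4 IMA1 OE libraries of GI and of PRR5 thus lay between the EYFP OE libraries. By mean level the order in EYFP OE rosettes was LHY, CCA1, TOC1, ELF3, ELF4, PRR7, LUX, PRR5, GI and PRR9, and the libraries of every neighbouring pair overlapped.

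The day genes PRR7 and PRR9 differed in another set of libraries. PRR7 was at 18.32 and 19.66 in EYFP OE rosettes, nearly equal, but at 12.16 and 32.21 in IMA1 OE on full medium and at 13.43 and 28.40 on Fe-deficient medium. On the log2(value + 1) scale PRR7 had the smallest difference of the 10 genes between EYFP OE libraries (-0.097) and the largest in IMA1 OE on Fe-deficient medium (-1.03). In IMA1 OE on full medium its difference of -1.34 came after that of ELF4 (1.43). PRR9 was at 2.20 and 1.01, at 0.88 and 2.51 and at 1.1 and 0.99, close to the limit for testing, and its direction changed between groups. The authors' deposited table marks PRR9 as low in all 4 comparisons.

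These differences were large beside those of all tested genes. The difference of log2(value + 1) between EYFP OE rosette libraries was at least 1 for 6 of the 10 clock genes, beside 3.25% of 18731 tested genes, and its median size was 1.54 for the clock genes and 0.19 for all tested genes. In IMA1 OE rosettes on full medium 5 genes reached 1, beside 2.31% of tested genes, with medians of 0.96 and 0.17. In IMA1 OE rosettes on Fe-deficient medium PRR7 reached it, beside 2.12% of 18691 tested genes, with medians of 0.64 and 0.16. In roots 0 of the 10 genes reached it in any group, and the medians were 0.18, 0.094 and 0.13 beside 0.10, 0.12 and 0.11 for all tested genes. For CCA1 in EYFP OE rosettes, 0.288% of tested genes differed as much or more, and for PRR5 0.171%.

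**Figure D2:**
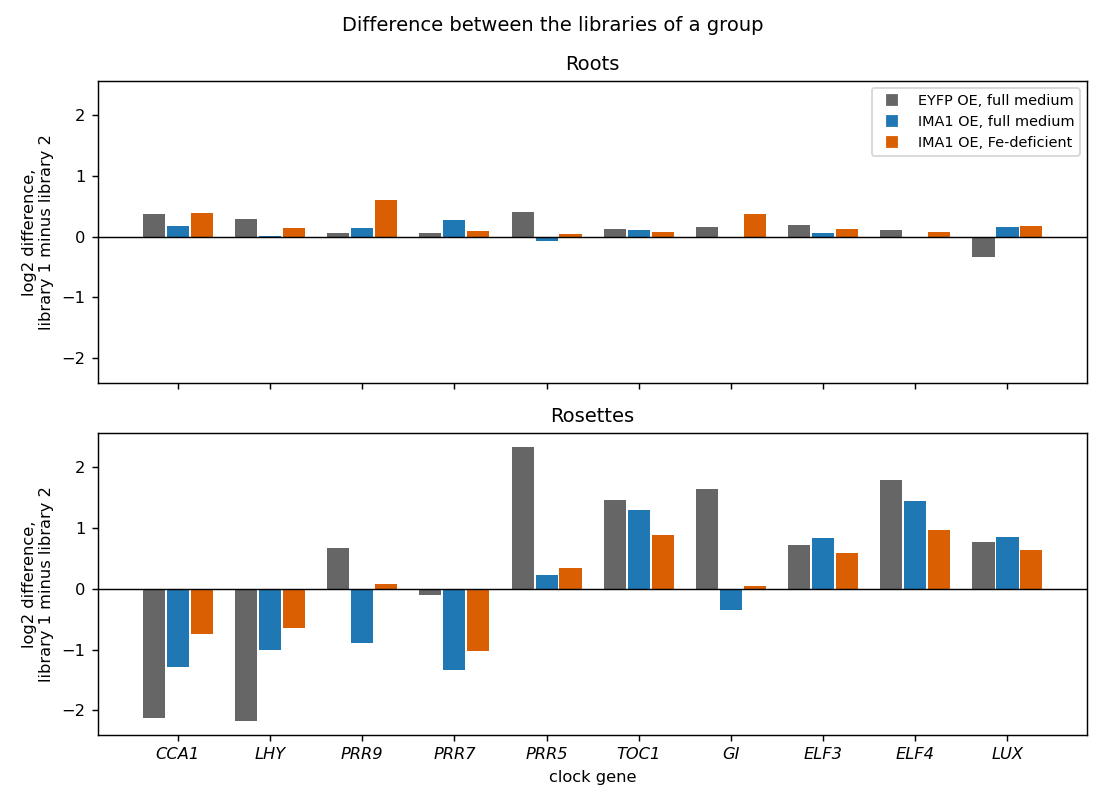
Difference of log2(value + 1) between the library numbered 1 and the library numbered 2 of each group, for the 10 clock genes in roots (top) and rosettes (bottom). Bars are single differences and carry no error; root bars reach 0.59 for PRR9, and rosette bars reach -2.17 for LHY and 2.33 for PRR5.

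The ratio of the dawn gene CCA1 to the evening gene TOC1 was taken within each library. In roots CCA1 was 0.463 to 0.62 of TOC1 in all 6 libraries. In rosettes the ratio was 0.41, 0.726 and 1.04 in the libraries numbered 1 of EYFP OE and of IMA1 OE with full and with Fe-deficient medium. In the libraries numbered 2 it was 5.34, 4.58 and 3.34 in the same order. The ratio of CCA1 to LHY stayed between 0.895 and 1.08 over the 6 rosette libraries. The ratio of LUX to ELF3 stayed between 0.561 and 0.681 there.

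**Figure D3:**
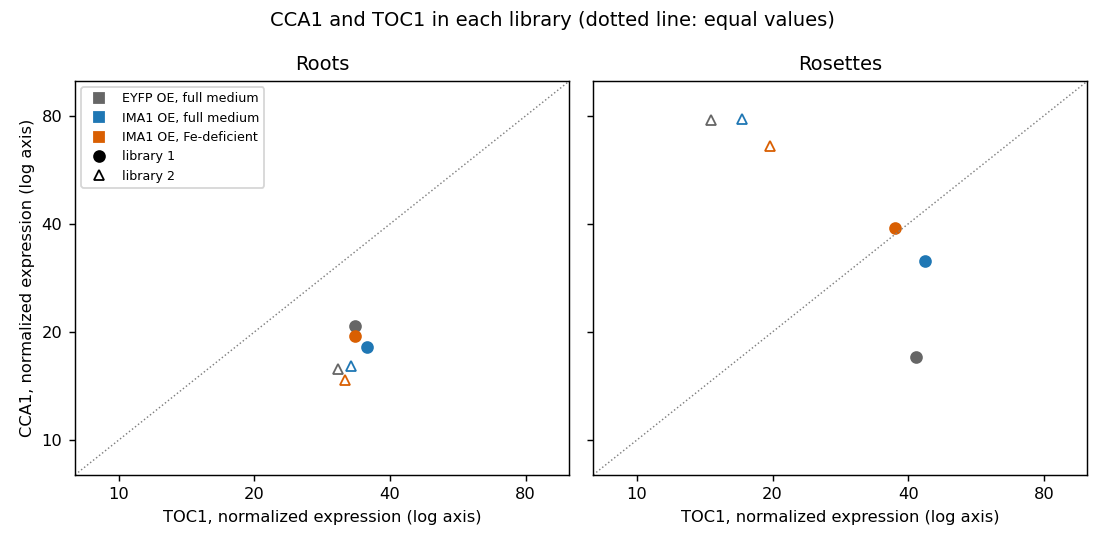
CCA1 against TOC1 normalized expression (both log axes) in the 6 root libraries (left) and the 6 rosette libraries (right), 1 point per library, with a dotted line where both values are equal. Root points form 1 cluster under the line, and rosette points spread from 17.07 for CCA1 at 41.59 for TOC1 to 78.07 at 14.61.

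In rosettes no clock gene passed the test between the lines. On full medium 0 of the 10 clock genes passed the limma threshold, beside 0.0107% of 18731 tested genes (2 genes), and 0 had an unadjusted p under 0.05, beside 5.43% of all genes. The groups of all 10 overlapped, where 31.6% of tested genes did not overlap. CCA1 averaged 47.6 ± 43.1 (SD, n = 2) in EYFP OE and 55 ± 33.1 in IMA1 OE, and its log2 change was 0.43 (SE 0.81, 95% interval -1.67 to 2.53, limma adjusted p 1). For LHY the change was 0.42 (SE 0.78, 95% interval -1.61 to 2.44, limma adjusted p 1). The interval of each of the 10 genes spanned 0. The narrowest was that of ELF3, from -0.96 to 0.96, and the other 9 reached 1 or -1 on at least 1 side, in this fit without the replicate number. Of the 10 genes 6 were higher in IMA1 OE, beside 41.5% of tested genes. For LHY, PRR5, GI and ELF4 both IMA1 OE libraries lay within the EYFP OE range, 4 of 10 genes beside 19.9% of all tested genes. This count and the overlap of all 10 depend on the width of the EYFP OE pair, so neither is read as a lack of effect. The median log2 difference of that pair was 1.54 for the clock genes and 0.19 for all tested genes.

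On Fe-deficient medium 0 of the 10 genes passed in rosettes, beside 0.00535% of 18691 tested genes (1 gene), and 0 had an unadjusted p under 0.05, beside 5.17% of all genes. All 10 genes overlapped between the groups, where 33.2% of tested genes did not. The smallest unadjusted p was that of PRR9, whose log2 change was -0.30 (SE 0.27, 95% interval -1.02 to 0.43, limma adjusted p 0.994). For 7 of the 10 genes both IMA1 OE libraries lay within the EYFP OE range, beside 20% of tested genes, and 5 of the 10 were higher in IMA1 OE, beside 43.2%. The overlap and the 7 genes within range depend on the wide EYFP OE pair of the clock genes, so neither is read as a lack of effect. In the authors' deposited table the p-values of the 10 genes ran from 0.35 to 0.98 and from 0.67 to 0.98 in roots on full and Fe-deficient medium. In the authors' deposited table for rosettes they ran from 0.47 to 0.97 and from 0.35 to 0.92.

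**Figure D4:**
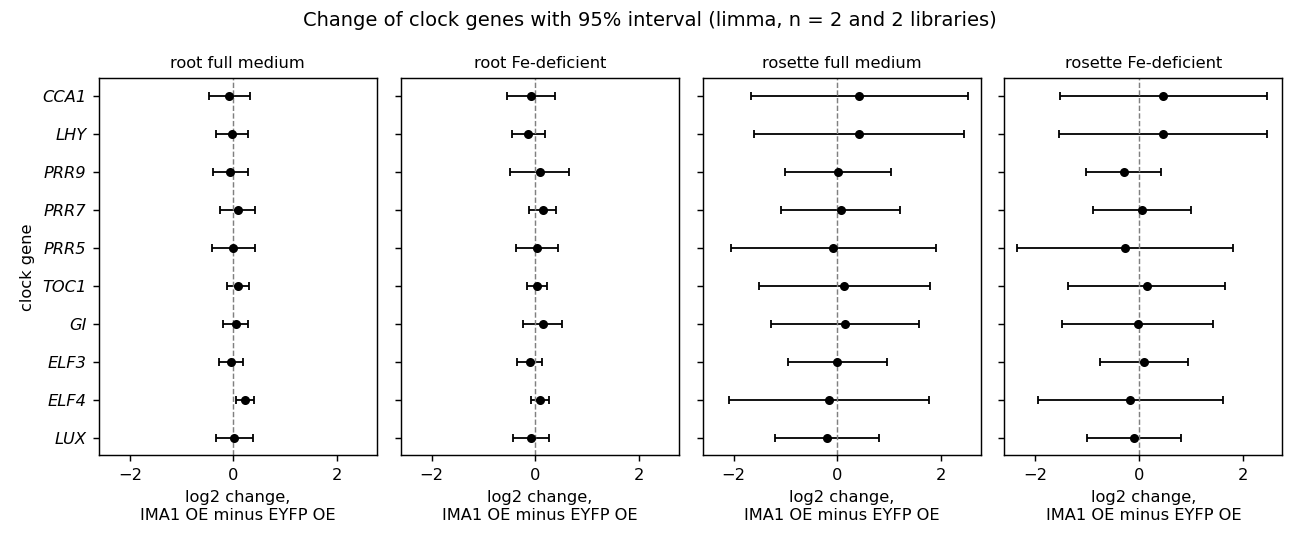
Log2 change of each clock gene, IMA1 OE minus EYFP OE, in the 4 comparisons, with the 95% interval from limma (2 and 2 libraries). Root intervals are narrow around 0, and rosette intervals reach from -2.36 to 2.53.

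The medium was not tested within IMA1 OE, because the tables were normalized separately, and levels are set side by side instead. In EYFP OE, the libraries that both tables of a tissue share, the values of the 10 genes differed between tables by at most 3.11%. In IMA1 OE rosettes CCA1 stood at 31.58 and 78.33 on full and at 38.92 and 66.12 on Fe-deficient medium, and TOC1 at 43.51 and 17.10 and at 37.43 and 19.77. For both genes the libraries on Fe-deficient medium lay between those on full medium. In IMA1 OE roots ELF4 stood at 83.37 and 84.94 on full and at 79.10 and 74.90 on Fe-deficient medium. LHY stood at 15.98 and 15.85 on full and at 15.38 and 13.80 on Fe-deficient medium. The nearest LHY values, 15.85 and 15.38, lie about as far apart as shared libraries did between tables. The share of all genes without overlap between the media was not taken, so no gap is read as an effect of the medium.

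Whether the change of a clock gene differed between roots and rosettes was tested with the interaction term of a limma model. On full medium 0 of the 10 genes passed, beside 0.0189% of 21161 tested genes (4 genes), and 0 had an unadjusted p under 0.05, beside 4.32% of all genes, while 4 of the 10 differences were positive, beside 53.3%. On Fe-deficient medium 0 passed, beside 0.313% of 21101 tested genes (66 genes), and 0 had an unadjusted p under 0.05, beside 6.76%, and 6 were positive, beside 51.6%. The largest differences, root minus rosette, were -0.51 for CCA1 on full medium (SE 0.97, 95% interval -2.82 to 1.81, limma adjusted p 1) and -0.60 for LHY on Fe-deficient medium (SE 0.89, 95% interval -2.72 to 1.51, limma adjusted p 0.998).

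The wider clock was examined through a list of 28 further genes, drawn up from general knowledge. Of these 27 could be tested in each comparison, since ASG4 (also named RVE3) was too low in roots and ELF4-L1 in rosettes. No gene of the list passed the limma threshold in any of the 4 comparisons. In roots on full medium 0 had an unadjusted p under 0.05, and the largest log2 changes were 0.40 for ELF4-L1, 0.23 for RVE8 and -0.18 for LNK3. On Fe-deficient medium 3 of 27 had an unadjusted p under 0.05, all with a positive change, a share near the 9.14% of all tested genes. For the genes of this comparison the EYFP OE levels are given as normalized with the Fe-deficient libraries. PRR3, a further pseudo-response regulator, was at 3.37 and 3.82 in the EYFP OE roots, against 5.37 and 4.63 in those of IMA1 OE on Fe-deficient medium (log2 change 0.38, SE 0.12, limma adjusted p 0.427). ELF4-L1, a relative of ELF4, was at 0.78 and 1.48 and at 2.79 and 2.01 (log2 change 0.68, SE 0.23, limma adjusted p 0.439). RVE4, an activating relative of CCA1 listed in RefSeq as LCL1, had a fitted difference of 0.20 (SE 0.07, limma adjusted p 0.482), and RVE2 had -0.25 (SE 0.12, limma adjusted p 0.611). The median change of the list was 0.0044 in that comparison, beside -0.016 for all tested genes.

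In rosettes the largest changes of the list on full medium were those of RVE8, an activator of evening genes, at 0.53 (SE 0.61), ASG4 at 0.47 (SE 0.31) and RVE2 at -0.44 (SE 0.31), each with a limma adjusted p of 1. On Fe-deficient medium they were those of RVE8 at 0.55 (SE 0.60, limma adjusted p 1), RVE2 at -0.51 (SE 0.37, limma adjusted p 0.994) and LWD2, a WD-repeat protein of the clock, at -0.44 (SE 0.13, limma adjusted p 0.866). LWD2 was at 11.83 and 9.97 in the EYFP OE libraries, as normalized with the Fe-deficient libraries, against 7.60 and 7.88 in those of IMA1 OE. These did not overlap, as for 33.2% of all tested genes. LWD2 was the 1 gene of 27 with an unadjusted p under 0.05, beside 5.17% of all tested genes. The median changes of the list were 0.034 and 0.007, beside -0.034 and -0.028 for all tested genes.

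Between the rosette libraries the wider clock differed too, with smaller median differences than the core. The median sizes on the log2(value + 1) scale were 0.48 in EYFP OE, 0.52 in IMA1 OE on full medium and 0.39 on Fe-deficient medium. Those of the core were 1.54, 0.96 and 0.64, and those of all tested genes 0.19, 0.17 and 0.16. Of the 27 genes, 8 were higher in the library numbered 1 of all 3 groups and 10 were lower in it, beside 25.1% and 24.5% of all 18582 tested genes. A difference of at least 1 on the log2 scale, in the same direction in all 3 groups, was found for 5 of the 27, beside 0.441% of tested genes, and for 0 of the 10 core genes. In roots it was found for 0 of both, beside 0.0971% of tested genes. JMJD5, a demethylase gene that peaks in the evening, was at 61.29 and 6.14 in EYFP OE, at 52.34 and 7.86 in IMA1 OE on full medium and at 44.59 and 11.94 on Fe-deficient medium. BOA, the closest relative of LUX, was likewise higher in the libraries numbered 1, with folds of 3.19, 4.49 and 4.07. LNK2, LNK3 and LNK4, of a family of morning-phased coactivators of the RVE factors, were higher in the libraries numbered 2. LNK2 was at 34.70 and 161.37, at 58.10 and 156.28 and at 59.29 and 145.01. FKF1, a blue-light receptor of the flowering pathway that peaks in the evening, was likewise higher in the libraries numbered 1, at 15.15 and 1.15, at 5.99 and 2.75 and at 7.48 and 2.36. The RVE genes did not all run 1 way. RVE8 and RVE1 were higher in the libraries numbered 2, with CCA1. RVE2 was higher in those numbered 1, at 142.38 and 91.47, at 104.32 and 67.30 and at 107.49 and 58.81. In roots 2 of 27 genes spanned 2-fold or more over the 6 libraries, LNK3 and ELF4-L1, beside 9.79% of all tested genes, and in rosettes 12 of 27, beside 16.5%.

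Of 17 genes listed as clock outputs, 11 could be tested in roots and 17 in rosettes, and 0 passed in any of the 4 comparisons. An unadjusted p under 0.05 was found for GRP8 and CAT2 in roots on full medium, for CAT2 in roots on Fe-deficient medium and for CO in rosettes on full medium. These were 2 of 11, 1 of 11 and 1 of 17 genes, beside 4.22%, 9.14% and 5.43% of all tested genes. CAT2, a catalase, had the smallest p, in roots on Fe-deficient medium, where its fitted difference was -0.28 (SE 0.06, limma adjusted p 0.228), against 0.19 (SE 0.06, limma adjusted p 1) on full medium. COL2, a relative of the flowering regulator CO, had the largest root changes, -0.48 on full medium (SE 0.33, limma adjusted p 1) and -0.70 on Fe-deficient medium (SE 0.32, limma adjusted p 0.607). The next were -0.27 for CAB2 and 0.20 for GRP8 on full and -0.47 for CAB2 and -0.35 for BBX18 on Fe-deficient medium. COL2 stood at 3.91 and 1.57 in EYFP OE roots and, overlapping, at 1.5 and 1.6 in IMA1 OE on full medium. It stood at 1.1 and 1.17 in IMA1 OE on Fe-deficient medium. CAB2 lay between 0.44 and 2.85 in roots, close to the limit for testing, so the root changes of both rest on low values. In rosettes the largest were those of COL1 on full medium, at 0.92 (SE 1.09, limma adjusted p 1), and of CAT3 on Fe-deficient medium, at 0.56 (SE 0.46, limma adjusted p 0.994). The next were 0.76 for CAT3 and -0.62 for FT on full and -0.40 for CDF3 and 0.34 for PIF5 on Fe-deficient medium.

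The outputs also differed between rosette libraries. CAB2, a light-harvesting gene that peaks in the morning, was at 1232.69 and 4876.92 in EYFP OE, at 1101.45 and 4140.72 in IMA1 OE on full medium and at 1311.22 and 4163.34 on Fe-deficient medium. GRP7, an RNA-binding protein gene that peaks in the evening, was at 1779.85 and 285.39, at 1169.80 and 458.49 and at 877.78 and 541.14. CAB2 was thus higher in the libraries numbered 2, with CCA1 and LHY, and GRP7 in those numbered 1, with TOC1 and ELF4. The direction of GRP8 changed between groups. It was higher in library 1 of EYFP OE, at 203 and 116.36. In IMA1 OE it was higher in library 2, at 147.24 and 182.82 on full and at 120.72 and 153.05 on Fe-deficient medium. COL1 was at 0.95 and 18.65 in the EYFP OE rosettes, and the 4 IMA1 OE libraries lay between these, from 4.73 to 12.58. In all, 8 of the 17 outputs were lower and 2 higher in the library numbered 1 of all 3 groups, beside 24.5% and 25.1% of all tested genes.

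**Figure D5:**
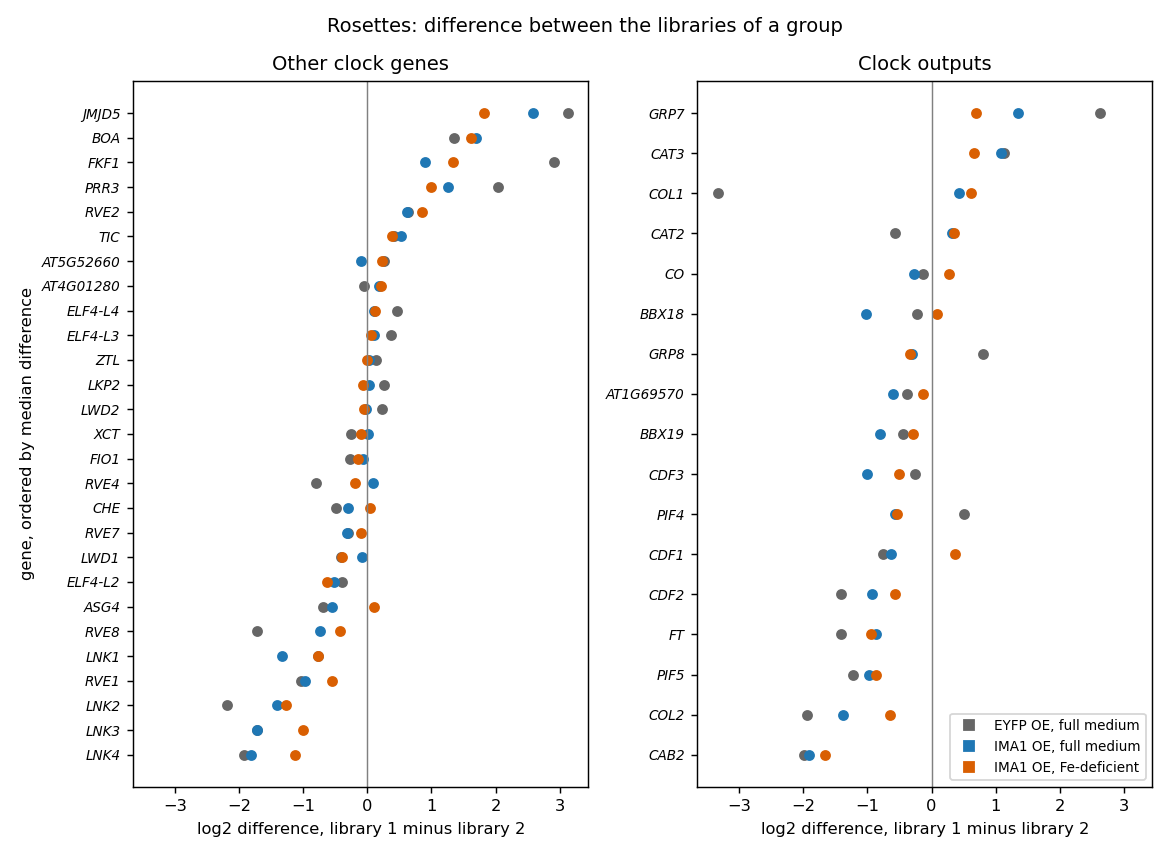
Difference of log2(value + 1), library numbered 1 minus library numbered 2, in the 3 rosette groups for 27 other clock genes (left) and 17 clock outputs (right), 1 point per group (points may cover each other), ordered by the median difference. JMJD5 and BOA lie above 1 and LNK2, LNK3, LNK4 and CAB2 at or below -1 in all 3 groups.

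Genes most like CCA1 and TOC1 over the 6 libraries of a tissue were ranked by Pearson's r of log2(value + 1), as a description with no test. Over the 6 rosette libraries and 17514 genes at 1 or more in all of them, LHY ranked 5 for likeness to CCA1, behind ATH13, JAC1 and NDA1 in the first places. ELF4 was among the least like CCA1, at rank 17406. ELF3 ranked 66 and ELF4 132 for likeness to TOC1, and JMJD5 ranked 3, after SGT and SCPL49. In roots, over 18841 genes, LHY ranked 643 for likeness to CCA1, behind AT2G03500, AT1G15230 and AT3G27110, and ELF3 ranked 3108 for likeness to TOC1, whose first places were held by AT1G26665, AT1G10300 and AT3G13040. With 6 libraries, many genes reach a high value of this measure.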

How the data were processed

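Polyadenylated RNA was sequenced in 12 samples. The submitters' processing notes name bcl2fastq 1.8.4, Trimmomatic 0.35, Bowtie2 2.0.6, edgeR 3.12.1 and limma 3.26.9 and the build TAIR10, without roles. Per the file headers, the authors' tables give for each gene a normalized signal in every library (TMM, with no unit stated). Per the file headers they also deposited a Z-test p-value and a log2 fold change. Depth is unknown, so no interval or limit of detection from counts is given. Columns were matched to samples by heading and label, with 0 columns of samples left out. Values were analysed as log2(value + 1). Genes with at least 1 in at least 2 of 4 libraries were fitted within each table with limma 3.58.1 in R 4.3.3 (intensity trend, two-sided, Benjamini-Hochberg over all tested genes, threshold 0.05), without a replicate block. The tissue difference was the interaction term over 8 columns. The procedure was tested on simulated data with independent libraries, which held no difference shared by library number. That test does not cover the differences between rosette libraries described here. Tried alternatives were a pseudocount of 0.1, no filter, no trend, a block, median scaling, another filter for the tissue difference and leaving out each library. The clock genes and lists were chosen with earlier results of these data known. Named genes are the 10 clock genes, list members past the threshold or with 1 of the 3 largest changes, and the 3 most similar genes per tissue. Other genes of the lists were named after their values were seen. Symbols and positions come from RefSeq TAIR10.1.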

Additional observations from a re-analysis of the deposited data

How the results depend on the processing

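The labels share the numbers 1 and 2 between groups, but nothing says that they mark a shared plate or day. Across tested genes the differences between libraries 1 and 2 of the groups compared correlated with r of 0.271 and 0.24 in roots and 0.4 and 0.45 in rosettes on full and Fe-deficient medium. With the replicate number as a block, 16, 323 and 60 genes passed in roots on full medium, roots on Fe-deficient medium and rosettes on full medium, and 0 for the tissue difference on full medium, and the block left the other counts within 1.5-fold. No clock gene passed under the block or under any other alternative. Under the block the smallest limma adjusted p of a clock gene in rosettes was 0.61, for CCA1 on full medium. Without the filter on low values 141, 113, 130, 133 and 164 genes passed in roots on full medium, in rosettes on full and Fe-deficient medium and for the tissue difference on full and Fe-deficient medium. With a pseudocount of 0.1 the counts were 1 in rosettes on full medium and 33 for the tissue difference on Fe-deficient medium, without the trend 120 in roots on Fe-deficient medium, and with the filter passed in both tissues 1 and 20 for the tissue differences. Leaving out 1 library, the counts ran from 0 to 4 and from 55 to 80 in roots, from 0 to 10 and from 0 to 4 in rosettes, and from 0 to 17 and from 30 to 94 for the tissue differences, each on full and Fe-deficient medium. A lone library left in a group was assumed to vary like the other group. Of the 640 alternative values of single clock genes 102 changed sign, 96 of them when a library was left out. The others were changes next to 0: with a pseudocount of 0.1 PRR5 was at 0.00094 in roots and 0.014 in rosettes on full medium and at -0.013 for the tissue difference, and GI at 0.026 in Fe-deficient rosettes. With median scaling PRR5 was at 0.0041 in roots and ELF3 at 0.0022 in rosettes on full medium. Without 1 library the log2 changes that changed sign had these ranges. In roots on full medium they ran over CCA1 -0.27 to 0.11, LHY -0.17 to 0.12, PRR9 -0.13 to 0.011, PRR7 -0.050 to 0.22, PRR5 -0.21 to 0.20, GI -0.037 to 0.12, ELF3 -0.14 to 0.054 and LUX -0.15 to 0.19. In roots on Fe-deficient medium they ran over CCA1 -0.27 to 0.11, LHY -0.28 to 0.0093, PRR9 -0.21 to 0.38, PRR5 -0.17 to 0.24, TOC1 -0.036 to 0.089, GI -0.037 to 0.33 and LUX -0.25 to 0.091. In rosettes on full medium they ran over CCA1 -0.64 to 1.49, LHY -0.67 to 1.51, PRR9 -0.43 to 0.47, PRR7 -0.60 to 0.73, PRR5 -1.24 to 1.09, TOC1 -0.59 to 0.86, GI -0.67 to 0.96, ELF3 -0.42 to 0.41, ELF4 -1.05 to 0.72 and LUX -0.62 to 0.23. In rosettes on Fe-deficient medium they ran over CCA1 -0.60 to 1.53, LHY -0.62 to 1.56, PRR9 -0.63 to 0.039, PRR7 -0.46 to 0.57, PRR5 -1.44 to 0.89, TOC1 -0.58 to 0.87, GI -0.85 to 0.79, ELF3 -0.26 to 0.45, ELF4 -1.06 to 0.72 and LUX -0.48 to 0.29. For the tissue difference on full medium they ran over CCA1 -1.57 to 0.56, LHY -1.53 to 0.64, PRR9 -0.53 to 0.37, PRR7 -0.65 to 0.69, PRR5 -1.09 to 1.24, TOC1 -0.78 to 0.67, GI -0.92 to 0.71, ELF3 -0.46 to 0.37, ELF4 -0.51 to 1.27 and LUX -0.22 to 0.64. For the tissue difference on Fe-deficient medium they ran over CCA1 -1.61 to 0.52, LHY -1.70 to 0.49, PRR7 -0.43 to 0.60, PRR5 -0.86 to 1.47, TOC1 -0.85 to 0.61, GI -0.64 to 0.99, ELF3 -0.56 to 0.15, ELF4 -0.62 to 1.16 and LUX -0.37 to 0.40. The causes were not tested. Read depth is unknown, and PRR9 in rosettes lies close to the limit for testing.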
